A study of Homo sapiens with 48 samples.

Results

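The response of TMD8 lymphoma cells to 6 h of NGI-1 was examined in 4 of the 48 RNA-seq libraries of a study of inhibitors in diffuse large B cell lymphoma. These were the libraries labelled TMD8, 6 h and NGI-1 (5 µM, replicates 1 and 2) and those labelled TMD8, 6 h and DMSO (vehicle, replicates 1 and 2), chosen by their labels alone. TMD8 is a human cell line of the activated B cell-like type of diffuse large B cell lymphoma. All cells of the study, controls included, carry the genotype label Cas9 engineered. The labels do not say whether the engineered line was a clone, or whether replicates were separate cultures. The p-values therefore reflect only the spread between replicate libraries, estimated over all 48, and that spread may be technical. Cells were grown at 500000 per ml in advanced RPMI with 5% FBS, and 2000000 cells were collected for each sample. Libraries of TMD8 at 3 and 24 h, of the lymphoma line HBL1 at 6 h, and of TMD8 at 6 h with 50 nM acalabrutinib, which blocks BTK, or 20 nM copanlisib, which blocks PI3K, served for comparison, each with 2 replicates and the same genotype label.

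NGI-1 is a small molecule inhibitor of oligosaccharyltransferase, the enzyme complex of the endoplasmic reticulum (ER) membrane that moves a preassembled glycan from dolichol onto asparagine residues of proteins entering the ER. Its catalytic subunit is either STT3A, which works beside the translocon, or STT3B, which works with the thioredoxin-like subunit MAGT1 or TUSC3. Proteins that fail to fold in the ER set off the unfolded protein response through 3 membrane sensors. IRE1 (gene ERN1) splices XBP1 mRNA, ATF6 is cut to release a transcription factor, and PERK (EIF2AK3) phosphorylates eIF2α and so favours translation of ATF4, which drives genes of amino acid supply, tRNA charging and the factor CHOP (DDIT3). Growth of lines of the activated B cell-like type is known to rest on B cell receptor and MYD88 signals to NF-kB, and several receptors of that pathway are N-glycoproteins.

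The NGI-1 libraries held 8845215 and 9066956 counted reads and the DMSO libraries 9876499 and 9360229, within the range of 7165377 to 11999050 over the 48 libraries. After the filter on low counts, 13881 of 25066 genes were tested. B cell markers summed to 6474 and 6047 CPM (counts scaled to library size) in NGI-1 libraries and to 7316 and 6797 CPM in DMSO libraries. Of these 10 markers 2 were called lower with NGI-1 and none higher. The largest, IRF4, was lower in NGI-1 libraries and MS4A1 higher, neither called. T and NK cell markers summed to at most 2.21 CPM in any of the 4 libraries, with CD2, CD3D, CD3E, CD3G and NCAM1 at 0 reads. Myeloid markers summed to 55.6 and 52.7 CPM with NGI-1 and 49.2 and 47.8 CPM with DMSO, most of it CD68, with S100A8 and S100A9 at 0 reads. Only 2 of 10 T and NK, 4 of 9 myeloid and 6 of 10 stromal and epithelial markers passed the filter on low counts. None of these was called, but apart from CD68 and KRT8 their counts were low, so the lack of a call says little. In bulk samples fewer cells of a type and less RNA per cell cannot be told apart.

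After 6 h with NGI-1 the called genes of the ER lay above DMSO, among them 13 of 25 of the BiP chaperone system, 8 of 24 disulfide isomerases and oxidases, 13 of 33 of ER-associated degradation, 7 of 12 oligosaccharyltransferase genes and 20 of 46 of COPII and COPI vesicle transport, and so did 14 of 33 ATF4 targets of amino acid supply. Below DMSO lay 15 of 35 NF-kB targets, 7 of 24 immediate early and ERK feedback genes, and MYC. The other members of these lists were not called. At an adjusted p under 0.05 in edgeR's quasi-likelihood test, 590 genes (4.25% of those tested) were called, 314 higher (2.26%) and 276 lower (1.99%). Changes of at least 2-fold were mostly upward, with 68 genes higher (0.49%) and 24 lower (0.173%). The median log2 fold change over all tested genes was 0.00. Values are CPM in the 2 libraries of a group, and log2 fold changes are given ± SE of the fit. The count rested on all 4 libraries, and was 193 when DMSO replicate 1 was left out, 247 for NGI-1 replicate 2, 260 for NGI-1 replicate 1 and 417 for DMSO replicate 2, and 99 higher and 40 lower genes were called whichever library was left out. A stricter filter on low counts left 307 higher and 375 lower genes, a smaller share higher.

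**Figure D1:**
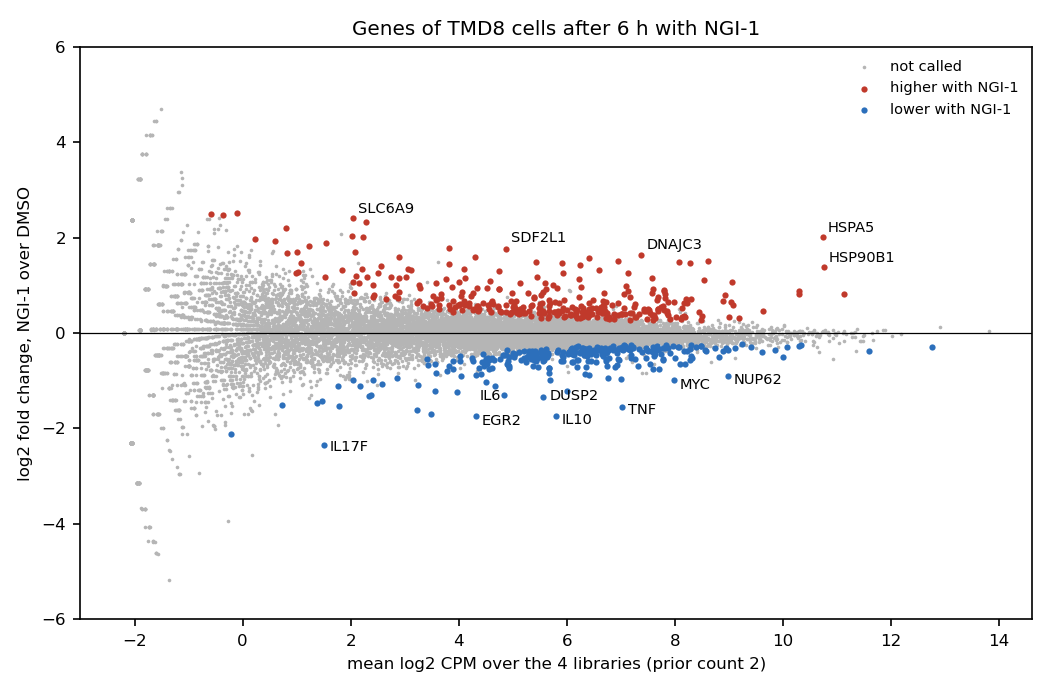
Log2 fold change of NGI-1 over DMSO in TMD8 at 6 h (vertical axis) against the mean log2 CPM of the 4 libraries (horizontal axis), 1 point per tested gene, red where called higher, blue where called lower and grey where not called. The 68 genes called at least 2-fold higher outnumber the 24 called at least 2-fold lower, and HSPA5 and HSP90B1 lie far to the right among the red points.

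The chaperone BiP (HSPA5), the main HSP70 of the ER and the gene most used as a reading of ER stress, had 3278 and 3594 CPM in NGI-1 libraries, against 865 and 834 CPM in DMSO libraries. The groups lay far apart, with the fitted level 4.04-fold higher in NGI-1 cells (log2 fold change 2.02 ± 0.16, adjusted p = 2.22e-09). Of the 25 genes of the BiP system that were tested, 13 rose and none fell, 12 were not called, and the median log2 fold change was 0.83. HSP90B1, which encodes the ER HSP90 (GRP94), had 2791 and 2814 CPM with NGI-1 and 1085 and 1053 CPM with DMSO, a log2 fold change of 1.39 ± 0.12 (adjusted p = 2.79e-10). Partners of BiP rose with it. SDF2L1, a component of the BiP chaperone complex, had 55.2 and 52.1 CPM with NGI-1 against 16.2 and 15.3 CPM with DMSO (log2 fold change 1.77 ± 0.16, adjusted p = 3.62e-11). DNAJC3 (P58IPK), a J-domain cochaperone, had 285 and 299.7 CPM against 96.4 and 92 CPM with DMSO, a log2 fold change of 1.63 ± 0.21 (adjusted p = 9.24e-06). For both genes the 2 NGI-1 libraries were alike, and the fitted levels lay 3.41-fold and 3.11-fold above DMSO.

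The J-domain protein DNAJB11 was 2.41-fold higher in NGI-1 cells, at 213 and 223 CPM against 92.9 and 88.1 CPM with DMSO (adjusted p = 1.31e-11). CRELD2, a small ER protein induced by stress, rose to 79.6 and 64.4 CPM in NGI-1 libraries, against 28.1 and 23.5 CPM in DMSO libraries (log2 fold change 1.48 ± 0.12, adjusted p = 1.34e-12). ARMET, now MANF, an ER-resident and secreted stress protein, rose by 1.5 ± 0.18 and HYOU1, the ER HSP110 that exchanges nucleotide on BiP, by 1.5 ± 0.17 on the log2 scale, with adjusted p = 3.73e-06 and 2.06e-06. The proline isomerase PPIB (cyclophilin B) had 259 and 253 CPM with NGI-1 against 151 and 136 CPM with DMSO, a log2 fold change of 0.83 ± 0.10 (adjusted p = 3.87e-08). The call of DNAJB9 (ERdj4) was less firm, at 29.8 and 24.5 CPM with NGI-1 and 10.3 and 11 CPM with DMSO. Its log2 fold change was 1.35 ± 0.35 (adjusted p = 0.0269), and the adjusted p was 0.25 with DMSO replicate 1 left out, 0.12 with DMSO replicate 2, 0.19 with NGI-1 replicate 1 and 0.079 with NGI-1 replicate 2 left out. The count over the list was 11 without any 1 of the 4 libraries. LOC400750 (HSPA5P1) and LOC100288073, both pseudogenes in RefSeq, also rose, with log2 fold changes of 2.32 and 2.01. The first is a copy of HSPA5, so reads of the parent gene counted there cannot be told apart from its own.

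The promoters of these genes are shown because the ER stress response element (ERSE), the site through which ATF6 and XBP1 are known to act, can be read in them. RefSeq promoter windows of GRCh38.p14, from 250 bases before to 50 bases after each gene's start, were found for 258 of the 314 higher genes (82.2%) and 225 of the 276 lower genes (81.5%). The ERSE was searched on both strands as CCAAT, any 9 bases and CCACG. It stood in 10 higher genes (3.88%), in none of the lower genes, in 17 of the 10365 tested genes with a window (0.164%) and in 27 of 35116 windows of all genes (0.0769%). The 10 genes were HSPA5, HSP90B1, CRELD2, PDIA6, CALR, CANX, XBP1, FICD, ALG12 and ERO1LB, of which ALG12 and ERO1LB lost their call without DMSO replicate 1 (adjusted p = 0.149 and 0.224), DMSO replicate 2 (0.096 and 0.0747) or NGI-1 replicate 1 (0.333 and 0.121), and ERO1LB also without NGI-1 replicate 2 (0.0803). The call of FICD was lost without NGI-1 replicate 1 (adjusted p = 0.168), DMSO replicate 1 (0.0882) or DMSO replicate 2 (0.144). The ERSE-II, searched as ATTGG, any 1 base and CCACG, stood in 5 higher genes (1.94%), in none of the lower genes, in 12 tested genes (0.116%) and in 19 windows of all genes (0.0541%). These 5 were SDF2L1, HERPUD1, HYOU1, NUCB1 and SHCBP1, of which NUCB1 lost its call without NGI-1 replicate 1 (adjusted p = 0.062) and SHCBP1 without NGI-1 replicate 2 (0.264) or DMSO replicate 1 (0.266). A match is a run of letters, not a bound site, and a window without a match says nothing of the factor. Below, capitals mark the fixed letters of the element, which read CGTGG and ATTGG, or CGTGG and CCAAT for ERSE-II, where it lies on the other strand. The stretch of HSPA5 ends at the base before the gene's start (chr9:125241344-125241593, minus strand), that of HSP90B1 holds 2 elements (chr12:103930201-103930354, plus strand), and those of XBP1 (chr22:28800588-28800636, minus strand), CALR (chr19:12938369-12938417, plus strand) and CRELD2 (chr22:49918539-49918587, plus strand) hold 1 each. The CRELD2 element is also that of ALG12, whose gene starts on the other strand. The last 2 lines are the ERSE-II stretches of SDF2L1 (chr22:21642089-21642149, plus strand) and HERPUD1 (chr16:56932000-56932060, plus strand).
HSPA5: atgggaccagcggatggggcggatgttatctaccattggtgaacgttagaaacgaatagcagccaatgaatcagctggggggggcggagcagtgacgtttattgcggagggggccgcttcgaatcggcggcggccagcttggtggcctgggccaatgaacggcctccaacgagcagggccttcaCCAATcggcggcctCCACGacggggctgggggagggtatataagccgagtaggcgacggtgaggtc
HSP90B1: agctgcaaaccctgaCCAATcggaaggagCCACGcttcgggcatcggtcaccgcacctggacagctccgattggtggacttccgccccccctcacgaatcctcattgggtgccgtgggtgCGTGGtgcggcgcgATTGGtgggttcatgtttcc
XBP1: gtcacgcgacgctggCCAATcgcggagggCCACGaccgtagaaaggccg
CALR: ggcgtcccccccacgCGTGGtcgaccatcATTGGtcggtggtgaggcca
CRELD2: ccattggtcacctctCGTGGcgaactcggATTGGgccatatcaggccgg
SDF2L1: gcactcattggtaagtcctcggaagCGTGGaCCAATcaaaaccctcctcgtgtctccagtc
HERPUD1: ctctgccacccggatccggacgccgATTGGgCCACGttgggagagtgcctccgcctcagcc

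Disulfide bonds in the ER are made by protein disulfide isomerases and recharged by ERO1 oxidases. Of 24 such genes tested, 8 rose and none fell, with a median log2 fold change of 0.22. The count was 5 without DMSO replicate 2 or without NGI-1 replicate 1. PDIA4 (ERp72) had 544 and 495 CPM with NGI-1 and 196 and 182 CPM with DMSO, a log2 fold change of 1.46 ± 0.13 (adjusted p = 1.15e-09). PDIA3 (ERp57), the isomerase that works on glycoproteins held by calnexin and calreticulin, had 790.2 and 764 CPM in NGI-1 libraries against 373 and 367 CPM in DMSO libraries (log2 fold change 1.07 ± 0.10, adjusted p = 2.12e-11). In each of these genes the NGI-1 libraries lay at more than 2 times the DMSO libraries. PDIA6 was 1.74-fold higher with a tight spread, at 636 and 649 CPM against 367 and 372 CPM with DMSO (log2 fold change 0.80 ± 0.07, adjusted p = 1.2e-11). P4HB, the founding member of the family, had a log2 fold change of 0.65 ± 0.10 (adjusted p = 3.65e-05), and TXNDC11 one of 0.68 ± 0.12 (adjusted p = 0.000245). The pancreatic family member PDIA2 stood at 5.04 and 5.29 CPM with NGI-1 and 1.57 and 1.21 CPM with DMSO, a low level, and its adjusted p of 0.0233 was 0.10 to 0.17 when any 1 of the 4 libraries was left out. TXNDC5 rose by 0.40 on the log2 scale (adjusted p = 0.00716), but the adjusted p was 0.16 without DMSO replicate 2, and 0.22 when NGI-1 replicate 1 was left out. The oxidase ERO1LB was called higher (log2 fold change 1.15) with all 4 libraries only, at an adjusted p of 0.0747 to 0.224 without any 1 of them, and the other oxidase ERO1L had a log2 fold change of -0.05 and was not called.

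ER-associated degradation carries misfolded proteins back to the cytosol for the proteasome. Of its 33 tested genes, 13 rose and none fell, with a median log2 fold change of 0.26. HERPUD1, which organises the membrane complex around the ligase HRD1, had 638 and 697 CPM with NGI-1 and 233 and 233 CPM with DMSO, a log2 fold change of 1.52 ± 0.17 (adjusted p = 1.48e-06). SEL1L, the adaptor of the HRD1 ligase, stood at 529.6 and 563 CPM with NGI-1 and 246 and 259 CPM with DMSO (log2 fold change 1.11 ± 0.13, adjusted p = 1.39e-07). Both genes had more than 2 times the DMSO level in both NGI-1 libraries. DERL3, a derlin of the retrotranslocation channel typical of secretory cells, had 29 and 23.4 CPM against 8.76 and 6.28 CPM with DMSO, a log2 fold change of 1.79 ± 0.29 (adjusted p = 0.000145), and DERL2 one of 0.69 ± 0.12 (adjusted p = 6.9e-05). The mannosidase-like protein EDEM1, which marks glycoproteins for disposal, stood at 292 and 309 CPM against 167 and 172 CPM with DMSO (log2 fold change 0.82 ± 0.15, adjusted p = 0.000707). The lectin OS9, which reads the trimmed glycan, rose by 0.39 (adjusted p = 0.00128, and 0.068 without NGI-1 replicate 1). The count over the list was 6 without DMSO replicate 1 or without NGI-1 replicate 2, and 7 without NGI-1 replicate 1. DERL2 and MIS12 overlap in the genome, MIS12 was called higher too (log2 fold change 0.58 ± 0.14, adjusted p = 0.00916, and 0.0583 to 0.16 without NGI-1 replicate 2 or either DMSO library), and counts of overlapping genes are uncertain since the strand setting of the counting is not given in the sources used here. None of 31 proteasome subunit genes was called, with log2 fold changes between -0.22 and 0.08.

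Among the 28 tested genes of the unfolded protein response itself, 7 rose, none fell and the median log2 fold change was 0.21. XBP1 had 144 and 162 CPM with NGI-1 and 60.9 and 61.1 CPM with DMSO, a log2 fold change of 1.33 ± 0.13 (adjusted p = 5.88e-09). Gene counts do not separate spliced from unspliced XBP1. DDIT3 encodes the stress factor CHOP and overlaps MARS in the genome. MARS was called higher too (log2 fold change 0.43, adjusted p = 0.00355), so the counts of DDIT3 are uncertain. DDIT3 had 36.2 and 32 CPM with NGI-1 against 13.3 and 9.25 CPM with DMSO. The groups did not overlap and the log2 fold change was 1.59 ± 0.33 (adjusted p = 0.00386), with adjusted p = 0.074 without DMSO replicate 2, and 0.051 when NGI-1 replicate 1 was left out. CREB3L2, a membrane-bound factor of the ATF6 family that activates secretory genes, had 194 and 193 CPM against 93.8 and 101 CPM with DMSO (log2 fold change 0.99 ± 0.10, adjusted p = 2.1e-10). Of the sensors, EIF2AK3 (PERK) stood at 54 and 54.7 CPM with NGI-1 and 34.4 and 30.6 CPM with DMSO, a log2 fold change of 0.74 ± 0.14 (adjusted p = 0.000358). ERN1 (IRE1) had 9.97 and 9.57 CPM against 6.05 and 4.63 CPM with DMSO, and its adjusted p of 0.0226 was between 0.068 and 0.24 without any 1 of the 4 libraries. The third sensor, ATF6, had 61.8 and 63.1 CPM in NGI-1 libraries and 68 and 64.5 CPM in DMSO libraries and was not called (adjusted p = 0.74). ATF4, whose control is mainly translational, stood at 314 and 322 CPM with NGI-1 and 246 and 224 CPM with DMSO, without overlap but not called (log2 fold change 0.44 ± 0.16, adjusted p = 0.136). Also uncalled were TRIB3 (0.91 ± 0.29, adjusted p = 0.0782), ATF3 (0.09 ± 0.16, adjusted p = 0.88) and PPP1R15A (GADD34, 0.02 ± 0.31, adjusted p = 1). BHLHA15 (MIST1) had 0 reads in both DMSO libraries and is given no fold. Without DMSO replicate 1 the list held 4 called genes and without NGI-1 replicate 1 it held 3. ATF5, another factor translated under eIF2α phosphorylation, had 3029.9 and 2938 CPM with NGI-1 and 1634 and 1755 CPM with DMSO, but it overlaps IL4I1 and NUP62 in the genome and both of these fell, so the division of reads among the 3 is uncertain. The adjusted p of ATF5 was 0.00546, and 0.12 without DMSO replicate 1, and 0.055 when NGI-1 replicate 1 was left out.

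Genes of amino acid supply known as ATF4 targets rose in 14 of 33 cases and fell in none, with a median log2 fold change of 0.65 over the 31 that had reads in the 4 libraries. The glycine transporter SLC6A9 had 10.5 and 7.32 CPM with NGI-1 and 1.57 and 1.76 CPM with DMSO (log2 fold change 2.42 ± 0.44, adjusted p = 0.000311). The neutral amino acid transporter SLC1A4 had 106 and 115 CPM against 49.9 and 50.5 CPM with DMSO, a log2 fold change of 1.14 ± 0.09 (adjusted p = 3.53e-12). Serine synthesis genes rose. PSAT1 had 292 and 281 CPM with NGI-1 against 120.2 and 135 CPM with DMSO and PSPH 25.4 and 25.7 CPM against 15 and 13.5 CPM, with log2 fold changes of 1.16 ± 0.19 (adjusted p = 0.000288) and 0.84 ± 0.16 (adjusted p = 0.000478). PHGDH, the enzyme before them in the pathway, had a log2 fold change of 0.40 and was not called (adjusted p = 0.359). CTH, which makes cysteine from cystathionine, stood at 12.8 and 12.3 CPM with NGI-1 and 4.59 and 3.63 CPM with DMSO (log2 fold change 1.6 ± 0.30, adjusted p = 0.00048), and the lipoprotein receptor VLDLR rose by 1.32 ± 0.24 (adjusted p = 0.000268). SLC7A11, the cystine importer, had 124 and 126 CPM against 45.9 and 46.8 CPM with DMSO, but its adjusted p of 0.0134 lay between 0.073 and 0.17 without any 1 of the 4 libraries. Asparagine synthetase, ASNS, had 138 and 136 CPM with NGI-1 and 73.6 and 79.6 CPM with DMSO (log2 fold change 0.84 ± 0.18, adjusted p = 0.00486, adjusted p = 0.11 without DMSO replicate 1). CHAC1, a glutathione-degrading enzyme and CHOP target, stood at 12.7 and 11.8 CPM and 9.39 and 5.62 CPM with DMSO and was not called (log2 fold change 0.70 ± 0.49, adjusted p = 0.544).

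Of 21 tested genes for aminoacyl-tRNA synthetases and the tRNA exporter, 9 rose and none fell, with a median log2 fold change of 0.28. AARS, for alanine, had 323 and 281 CPM with NGI-1 and 162 and 164 CPM with DMSO (log2 fold change 0.89 ± 0.09, adjusted p = 2.04e-09). WARS, for tryptophan, had 421 and 391 CPM against 242 and 250.2 CPM with DMSO, a log2 fold change of 0.72 ± 0.11 (adjusted p = 1.2e-05), and TARS, for threonine, one of 0.48 ± 0.09 (adjusted p = 0.000176). Both NGI-1 libraries lay above both DMSO libraries in these 3 genes. The changes of SARS, for serine (0.41 ± 0.09, adjusted p = 0.00201), and MARS, for methionine (0.43 ± 0.10, adjusted p = 0.00355), were smaller. The adjusted p of SARS was 0.12 without NGI-1 replicate 1, and that of MARS, which overlaps DDIT3, was 0.087 without DMSO replicate 1, and 0.093 when NGI-1 replicate 1 was left out. The count over the list was 4 without DMSO replicate 1, and 3 when NGI-1 replicate 1 was left out.

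The C/EBP-ATF response element, the site known from amino acid starvation through which ATF4 acts, was searched in the same promoter windows as TGATG, any 1 base and AA, on both strands. It stood in 24 of the 258 higher genes (9.3%), in 6 of the 225 lower genes (2.67%), in 298 of the 10365 tested genes (2.88%) and in 1270 windows of all genes (3.62%). The stretches of ASNS, of AARS and of HERPUD1, which holds the element beside the ERSE-II above, are shown with its fixed letters in capitals (TT and CATCA on the other strand). They lie at chr7:97872444-97872501 (minus strand), chr16:70289661-70289718 (minus strand) and chr16:56931941-56931998 (plus strand) of GRCh38.p14.
ASNS: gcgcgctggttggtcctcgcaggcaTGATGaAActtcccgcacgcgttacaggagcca
AARS: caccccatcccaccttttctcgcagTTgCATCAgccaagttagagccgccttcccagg
HERPUD1: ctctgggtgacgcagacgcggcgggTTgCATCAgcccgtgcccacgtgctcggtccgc

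The inhibited enzyme itself was measured through 12 genes, of which 7 rose, none fell and TUSC3 had 0 reads in all 4 libraries. MAGT1, a redox subunit of the STT3B complex, had 199.6 and 184 CPM with NGI-1 and 97.5 and 111 CPM with DMSO, a log2 fold change of 0.88 ± 0.09 (adjusted p = 2.32e-09). The catalytic subunit STT3B stood at 185 and 195 CPM against 119 and 131 CPM with DMSO (log2 fold change 0.60 ± 0.08, adjusted p = 8.03e-07) and the other one, STT3A, at 125 and 112 CPM against 88 and 78.4 CPM (0.51 ± 0.10, adjusted p = 0.000394). The catalytic genes were thus 1.52-fold and 1.42-fold higher, without overlap of the groups. OSTC, which links the STT3A complex to the translocon, rose by 0.65 ± 0.11 (adjusted p = 6.66e-05). Of the shared subunits, RPN1 rose by 0.57 ± 0.09 (adjusted p = 8.76e-06) and DDOST by 0.47 ± 0.08 (adjusted p = 4.34e-05). RPN2 had 271 and 259 CPM with NGI-1 against 226 and 209 CPM with DMSO, a log2 fold change of 0.28 ± 0.07 (adjusted p = 0.0114), with adjusted p = 0.17 without DMSO replicate 2 or NGI-1 replicate 1 and 0.054 without NGI-1 replicate 2. The small subunits were not called. DAD1 had a log2 fold change of 0.12 ± 0.09 (adjusted p = 0.606), C11orf10 (now TMEM258) one of 0.21 ± 0.12 (adjusted p = 0.396), LOC100128731 (OST4) one of 0.05 ± 0.10 (adjusted p = 0.883) and KRTCAP2 one of -0.00 ± 0.11 (adjusted p = 1). The median over the 11 subunit genes with reads was 0.47.

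Enzymes that build the glycan before its transfer rose in 7 of 36 cases and fell in none, with a median log2 fold change of 0.19. GFPT1, which opens the hexosamine pathway to UDP-GlcNAc, had 69.3 and 67.8 CPM with NGI-1 and 45.4 and 42.4 CPM with DMSO (log2 fold change 0.64 ± 0.12, adjusted p = 0.000288). GMPPB, which makes GDP-mannose, had 37.2 and 32.2 CPM against 18.6 and 13.9 CPM with DMSO, a log2 fold change of 1.09 ± 0.22 (adjusted p = 0.00213), but it overlaps RNF123, and the adjusted p was 0.062 without DMSO replicate 2, and 0.055 when NGI-1 replicate 1 was left out. The mannosyltransferases ALG2 (0.52 ± 0.11, adjusted p = 0.00116) and ALG12 (0.58 ± 0.15, adjusted p = 0.0156) rose. For ALG2 the adjusted p was 0.082 without DMSO replicate 2, and for ALG12 it was 0.096 to 0.33 without either DMSO library or NGI-1 replicate 1. DPAGT1, which starts the glycan on dolichol, had a log2 fold change of 0.41 (adjusted p = 0.065). The count over the list was 3 without either DMSO library or NGI-1 replicate 1.

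Glycan trimming and lectin genes rose in 4 of 29 cases, with a median of 0.08, and those 4 included the pair of glycoprotein chaperones. Calreticulin, CALR, had 1765 and 1640.5 CPM with NGI-1 and 967 and 884 CPM with DMSO, a log2 fold change of 0.88 ± 0.09 (adjusted p = 6.36e-10). Calnexin, CANX, had 1709 and 1618 CPM against 936 and 956 CPM with DMSO, a log2 fold change of 0.81 ± 0.08 (adjusted p = 1.32e-09). LMAN2 (VIP36), a cargo lectin, rose by 0.52 (adjusted p = 0.000186, and 0.053 without NGI-1 replicate 1). UGCGL1, now UGGT1, the folding sensor that reglucosylates glycoproteins, had a log2 fold change of 0.18 and was not called. Without NGI-1 replicate 1 the count was 2.

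**Figure D2:**
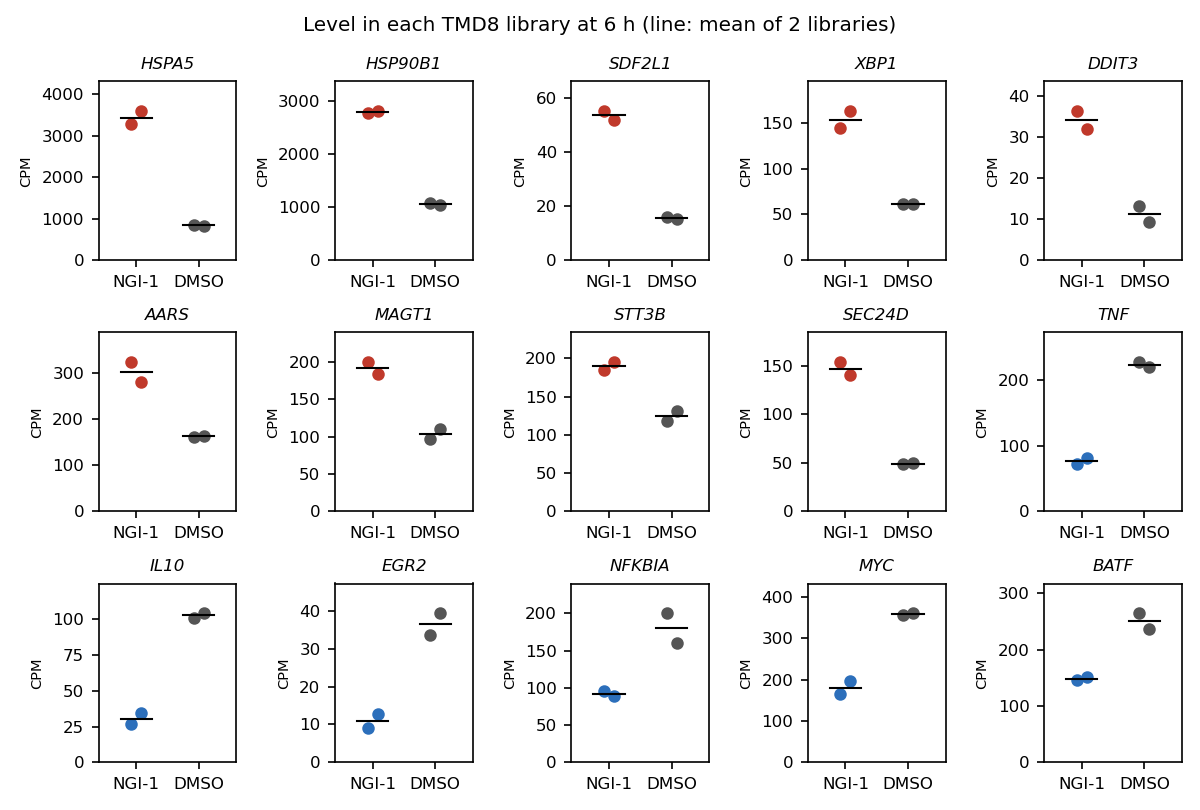
CPM of 15 genes in each TMD8 library at 6 h (points, NGI-1 left and DMSO right, with the group mean as a line), each panel starting at 0 on its own scale. In every panel the 2 NGI-1 libraries lie on one side of both DMSO libraries, above them from HSPA5 to SEC24D and below them from TNF to BATF.

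Genes of entry into the ER and of transport out of it followed. Of 31 signal recognition and translocon genes, 11 rose and none fell, with a median log2 fold change of 0.28. TRAM1, a translocon-associated protein, had 272 and 260.4 CPM with NGI-1 and 131 and 149 CPM with DMSO (log2 fold change 0.93 ± 0.10, adjusted p = 5.76e-09). SSR1, a subunit of the translocon-associated protein complex, had 300.4 and 305 CPM against 155 and 171 CPM with DMSO, a log2 fold change of 0.90 ± 0.12 (adjusted p = 3.69e-06), and its partners SSR2 and SSR3 rose by 0.59 and 0.73. The channel gene SEC61A1 rose by 0.66 ± 0.10 (adjusted p = 4.85e-06) and the signal peptidase gene SPCS3 by 0.76 ± 0.08 (adjusted p = 5.37e-10). Without DMSO replicate 1 or NGI-1 replicate 1 the count was 7. Of 46 COPII and COPI genes, 20 rose and none fell, with a median of 0.39. SEC24D, a cargo adaptor of the COPII coat, had 153 and 140.3 CPM with NGI-1 and 49 and 49.4 CPM with DMSO, a log2 fold change of 1.58 ± 0.24 (adjusted p = 9.05e-05). The paralogue SEC24C changed less, at 353 and 319.9 CPM against 241 and 229.6 CPM with DMSO (log2 fold change 0.52 ± 0.08, adjusted p = 1.79e-05), while SEC24A and SEC24B had log2 fold changes of 0.10 and -0.03 and were not called. The SNARE gene STX5 rose by 0.91 ± 0.14 (adjusted p = 8.76e-06), the cargo receptor gene SURF4 by 0.69 ± 0.10 (adjusted p = 7.65e-06), and TMED10 and TMED2, of the p24 family, by 0.70 and 0.65. The COPII and COPI count was 12 without DMSO replicate 1 or NGI-1 replicate 1.

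**Figure D3:**
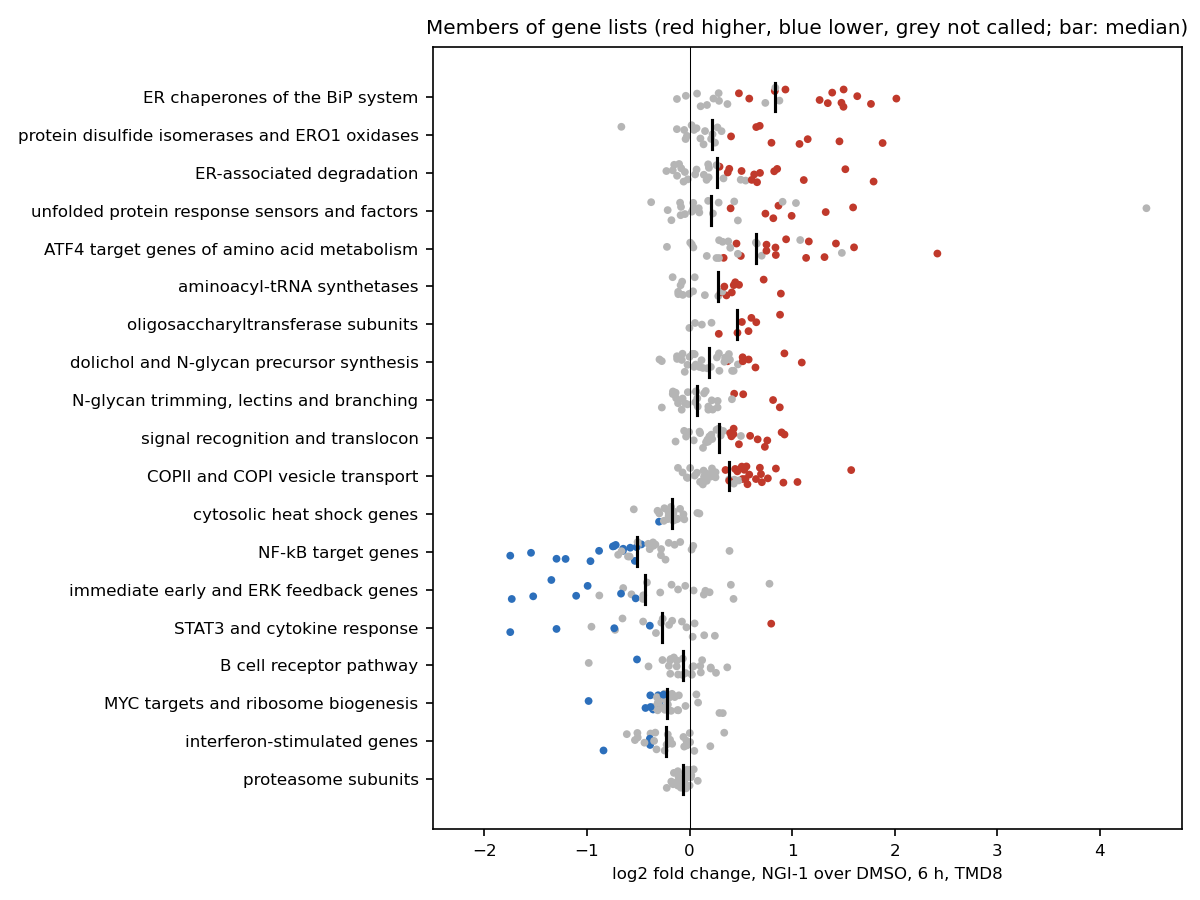
Log2 fold change of NGI-1 over DMSO in TMD8 at 6 h for the tested members of 19 gene lists that had reads in the 4 libraries, 1 point per gene, red where called higher, blue where called lower, grey where not called, with the list median as a bar. The lists of the ER and of amino acid supply lie to the right of 0 with medians of up to 0.83, and the NF-kB list lies to the left with a median of -0.52.

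On the lower side, 15 of 35 NF-kB target genes fell and none rose, with a median log2 fold change of -0.52. The cytokine gene TNF had 72.2 and 81 CPM with NGI-1 and 227 and 219.6 CPM with DMSO, a log2 fold change of -1.55 ± 0.15 (adjusted p = 9.62e-10). IL10 had 26.7 and 34.2 CPM with NGI-1 against 101 and 104 CPM with DMSO (log2 fold change -1.75 ± 0.25, adjusted p = 2.45e-05). These were fitted levels 2.92-fold and 3.36-fold lower, with both NGI-1 libraries far below both DMSO libraries. IL6 had 18.8 and 17.6 CPM against 45 and 44.4 CPM with DMSO, a log2 fold change of -1.30 ± 0.21 (adjusted p = 3.24e-05). NFKBIA, the inhibitor that NF-kB induces as its own brake, stood at 95.2 and 89.4 CPM with NGI-1 and 200.03 and 160.4 CPM with DMSO (log2 fold change -0.97 ± 0.15, adjusted p = 5.25e-05). IL4I1, an amino acid oxidase of activated B cells, had 39.1 and 45.5 CPM against 99.6 and 95.8 CPM with DMSO, a log2 fold change of -1.21 ± 0.16 (adjusted p = 9.3e-06), with the overlap at its locus described above. Lymphotoxin alpha, LTA, had 38.8 and 39.6 CPM against 73.1 and 57.6 CPM with DMSO (log2 fold change -0.74 ± 0.14, adjusted p = 0.000245), with adjusted p = 0.081 without DMSO replicate 1. The NF-kB subunit genes NFKB1, NFKB2, REL, RELA and RELB had log2 fold changes of -0.50 to -0.15 and were not called. The count over the list was 5 without DMSO replicate 1, 7 without NGI-1 replicate 2, 9 without NGI-1 replicate 1 and 12 without DMSO replicate 2.

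Immediate early and ERK feedback genes fell in 7 of 24 cases and rose in none (median -0.43). EGR2, a zinc finger factor induced by antigen receptor signals, had 9.17 and 12.7 CPM with NGI-1 and 33.6 and 39.3 CPM with DMSO, a log2 fold change of -1.73 ± 0.26 (adjusted p = 2.45e-05). The phosphatase gene DUSP2 had 29 and 30.1 CPM against 76.4 and 73.9 CPM with DMSO (log2 fold change -1.35 ± 0.14, adjusted p = 1.15e-09), and JUNB had 21.8 and 13.3 CPM against 39.3 and 36 CPM, with replicate 2 the lower of the NGI-1 pair (log2 fold change -1.11 ± 0.17, adjusted p = 9.3e-06). EGR1 varied within both groups, at 9.85 and 15.1 CPM with NGI-1 and 11.1 and 19.5 CPM with DMSO. These ranges overlapped and EGR1 was not called (log2 fold change -0.29 ± 0.61, adjusted p = 0.908). Without either NGI-1 library the list had 4 called genes.

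MYC, a transcription factor of cell growth, had 165 and 197 CPM with NGI-1 and 356 and 360.1 CPM with DMSO, a log2 fold change of -0.98 ± 0.15 (adjusted p = 0.000114). Of 35 MYC target and ribosome biogenesis genes, MYC among them, 8 fell and none rose, with a median of -0.22. This count was 1 without DMSO replicate 1, 4 when DMSO replicate 2 was left out and 3 when either NGI-1 library was. BATF, a factor of the activated B cell programme, had 146 and 151 CPM against 265 and 237 CPM with DMSO (log2 fold change -0.76 ± 0.09, adjusted p = 1.53e-07). ID2, an inhibitor of E proteins, had 76.4 and 79.9 CPM with NGI-1 and 154 and 148 CPM with DMSO, a log2 fold change of -0.95 ± 0.12 (adjusted p = 9.34e-07). Both groups stood well apart in these 3 factors. SPIB fell by 0.36 on the log2 scale (adjusted p = 0.00247, 0.16 without DMSO replicate 1, and 0.12 when NGI-1 replicate 2 was left out). IRF4, the factor on which such lines depend, had 2335 and 2265 CPM with NGI-1 and 3147 and 2839 CPM with DMSO, without overlap but not called (log2 fold change -0.38 ± 0.13, adjusted p = 0.113). PRDM1 (BLIMP1), the master factor of plasma cell differentiation, was not called either (-0.18 ± 0.09, adjusted p = 0.347). Of the other lists, STAT3 and cytokine response genes fell in 4 of 20 cases and rose in 1, and the 4 included IL6 and IL10 of the NF-kB list. BCL2L1, which encodes the survival protein BCL-XL, had 88.4 and 86.6 CPM with NGI-1 and 138 and 118 CPM with DMSO (log2 fold change -0.55 ± 0.10, adjusted p = 0.000117), and 3 of 23 BCL2 family genes fell. The proapoptotic gene BCL2L11 (BIM) stood at 469.6 and 439.6 CPM against 457 and 433 CPM with DMSO, in overlapping ranges, and was not called. STAT3 list calls numbered 3 in all without DMSO replicate 1, and BCL2 list calls numbered 1 without DMSO replicate 1 or NGI-1 replicate 1.

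Several pathways held few called genes at 6 h. Of 26 B cell receptor genes, PTPN6 (SHP-1) fell (-0.51 ± 0.12, adjusted p = 0.00562) with adjusted p of 0.060 to 0.10 without DMSO replicate 1 or either NGI-1 library, and BTK was at 437 and 429.9 CPM with NGI-1 and 423 and 433 CPM with DMSO. CD79A had 599 and 537 CPM with NGI-1 and 534 and 509 CPM with DMSO, and CD79B 289 and 263 CPM against 239 and 239 CPM. Neither was called (log2 fold changes 0.12 ± 0.14, adjusted p = 0.764 and 0.21 ± 0.07, adjusted p = 0.112). MYD88 fell to 168 and 164 CPM in NGI-1 libraries, against 209.8 and 219 CPM in DMSO libraries, a small difference whose adjusted p of 0.0111 was 0.059 to 0.12 without any 1 of the 4 libraries. TLR9, an N-glycosylated receptor, had 108 and 95.6 CPM with NGI-1 and 86.3 and 94.8 CPM with DMSO and was not called. Of 20 cytosolic heat shock genes 1 fell and none rose (median -0.17), of 14 NRF2 targets 1 rose, of 19 p53 targets 1 rose and of 27 cholesterol synthesis genes 1 fell. Each of these 4 counts was 0 without DMSO replicate 1, those of heat shock, NRF2 and p53 genes also without either NGI-1 library, and that of NRF2 targets also without DMSO replicate 2. Interferon-stimulated genes fell in 3 of 26 cases at 6 h (IFIT1, MX1 and OAS3, median -0.23), a count of 2 without either DMSO replicate 1 or NGI-1 replicate 2, 1 without DMSO replicate 2, and 0 when NGI-1 replicate 1 was left out.

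NGI-1 was also given to TMD8 for 3 h and for 24 h, each time with DMSO libraries of that time. NGI-1 changed 102 genes at 3 h (0.735%; 79 higher, 0.569%, and 23 lower, 0.166%) and 4223 at 24 h (30.4%; 2166 higher, 15.6%, and 2057 lower, 14.8%). Of the 314 genes higher at 6 h, 60 were called higher at 3 h, which is 19.1% of the 314 and 75.9% of the 79. At 24 h 205 of the 314 were called higher (65.3%), or 9.5% of the 2166. Of the 276 lower genes, 12 were called lower at 3 h (4.3%, and 52.2% of the 23) and 185 at 24 h (67%, and 9% of the 2057). The count at 3 h was 42 without its NGI-1 replicate 1, 47 without its DMSO replicate 1 and 63 without its DMSO replicate 2.

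No gene passed the test of the difference between the 6 h and 3 h effects by edgeR, with 822 genes at an unadjusted p under 0.05, and DESeq2 called 8. Without the filter on low counts 29 genes were called, and 18 or 24 when the fit held TMD8 libraries or the compared groups alone. A replicate block by number gave 8 genes and a block within each line and time 215, though the labels do not pair replicates. HSPA5 had log2 fold changes of 2.28 ± 0.16 at 3 h and 2.02 ± 0.16 at 6 h, with a 95% interval of the difference from -0.72 to 0.19. ATF4 was called at 3 h, at 528 and 504 CPM with NGI-1 and 259 and 264 CPM with DMSO (log2 fold change 0.98 ± 0.16, adjusted p = 0.000532), and the 6 h minus 3 h difference was -0.55 ± 0.22 (95% interval -1.01 to -0.09, adjusted p = 0.747). CHAC1 was also called at 3 h, at 49.1 and 50.4 CPM with NGI-1 against 5.73 and 7.37 CPM with DMSO (adjusted p = 0.000532, and 0.0552 without the 3 h DMSO replicate 1), and its difference of -2.24 ± 0.68 did not pass (adjusted p = 0.55). For CHAC1 the 95% interval ran from -3.64 to -0.83 and for XBP1 from -0.78 to -0.02, both with the smaller effect at 6 h. TNF (95% interval -1.43 to -0.60), BATF (-0.69 to -0.14), MYC (-0.92 to -0.03) and SLC1A4 (0.37 to 0.90) lay further from DMSO at 6 h. None of these differences was called in the edgeR fit of all 48 libraries with the filter on low counts and no replicate block. Whether other settings called them is not shown here, and the intervals are not adjusted for the number of genes. COPII and COPI genes were called higher in 2 of 46 cases at 3 h and in 20 at 6 h, and dolichol pathway genes in 0 of 36 and in 7, but this change of counts was not tested.

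Between 6 h and 24 h the effect of NGI-1 differed in 1118 genes (8.05%), with 526 (3.79%) having the higher effect at 6 h and 592 (4.26%) the lower. This count was 550 without the 6 h NGI-1 replicate 2, 619 without the 6 h DMSO replicate 1, 659 without the 24 h DMSO replicate 1, 689 without the 24 h NGI-1 replicate 1 and 742 without the 24 h NGI-1 replicate 2. Of the 314 genes higher at 6 h, the effect differed in 59, with 47 above and 12 below their 24 h effect. The tRNA synthetase list stood out in number, with 9 members higher at 6 h, none higher and 13 lower at 24 h, and 16 of 21 called in the difference, all with the higher effect at 6 h. TARS had 179 and 168 CPM with NGI-1 at 24 h and 236 and 218 CPM with DMSO, so that its log2 fold change was 0.48 ± 0.09 at 6 h and -0.39 ± 0.09 at 24 h, a difference of 0.87 ± 0.12 (adjusted p = 2.35e-06). For PSAT1 the 2 values were 1.16 ± 0.19 at 6 h and -0.33 ± 0.19 at 24 h (difference 1.49 ± 0.27, adjusted p = 0.000673), and for ASNS 0.84 ± 0.18 at 6 h and -0.46 ± 0.19 at 24 h (difference 1.30 ± 0.26, adjusted p = 0.0016). ATF4 targets as a list had 14 higher and none lower at 6 h, 7 higher and 3 lower at 24 h, and 12 of 33 with a called difference, all with the higher effect at 6 h.

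Called differences of B cell genes mostly had the other sign. Of 26 B cell receptor genes, 14 had the lower effect at 6 h and none the higher, and of 26 B cell and plasma cell transcription factors 10 had the lower effect and 2, BATF and BATF3, the higher. BATF was below DMSO at both times, and further at 24 h (log2 fold change -1.30 ± 0.10, adjusted p = 6.34e-14; difference 0.54 ± 0.14, adjusted p = 0.00794). IRF4 was also below DMSO at 24 h (-0.67 ± 0.13, adjusted p = 0.000251), and its difference was not called (0.29 ± 0.19, adjusted p = 0.409). SPIB was below DMSO at 6 h, and at 24 h it had 1137 and 1133 CPM with NGI-1 and 837 and 915 CPM with DMSO, a log2 fold change of 0.37 ± 0.08 (adjusted p = 0.000203). Its 6 h minus 24 h difference was -0.73 ± 0.11 (adjusted p = 8.14e-06). MYD88 had a log2 fold change of 0.27 ± 0.09 (adjusted p = 0.0287) at 24 h, a call lost without any 1 of the 4 libraries of 24 h (adjusted p = 0.0651 to 0.174), and a difference of -0.63 ± 0.13 (adjusted p = 0.00107). CD79B, uncalled at 6 h, had 658 and 661 CPM with NGI-1 and 244 and 244 CPM with DMSO at 24 h (log2 fold change 1.43 ± 0.07, adjusted p = 9.84e-20), and the difference was -1.23 ± 0.10 (adjusted p = 2.95e-11). BCL2L11 had a log2 fold change of 0.86 ± 0.09 (adjusted p = 4.23e-10) at 24 h and a difference of -0.83 ± 0.13 (adjusted p = 1.41e-05). As lists, B cell receptor genes had 16 of 26 higher and 1 lower at 24 h, and interferon-stimulated genes 16 of 26 higher and none lower. At 24 h, 12 of the 314 genes higher at 6 h were called lower (3.82%), against 14.8% of all tested genes. Likewise 12 of the 276 lower genes were called higher at 24 h (4.35%), against 15.6% of all tested genes. The first 12 included the tRNA genes TARS, EPRS, GARS and XPOT and the isomerase TXNDC5, and the second 12 included SPIB, MYD88, MX1, OAS3 and S1PR1. The 6 h calls of these genes were weak: those of XPOT, MYD88, MX1 and S1PR1 were lost without any 1 of the 4 libraries of 6 h, those of EPRS, GARS and OAS3 without 3 of them, those of SPIB and TXNDC5 without 2, and that of TARS in no case. Of the BiP list, 15 members were called higher and 1 lower at 24 h, and 12 of the 13 higher at 6 h were among the 15. HSPA5 then stood at 1421 and 1298 CPM against 559.9 and 463 CPM with DMSO (log2 fold change 1.41 ± 0.16). The HSPA5 difference between the times was not called (0.61 ± 0.22, adjusted p = 0.0981, 95% interval 0.15 to 1.07).

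**Figure D4:**
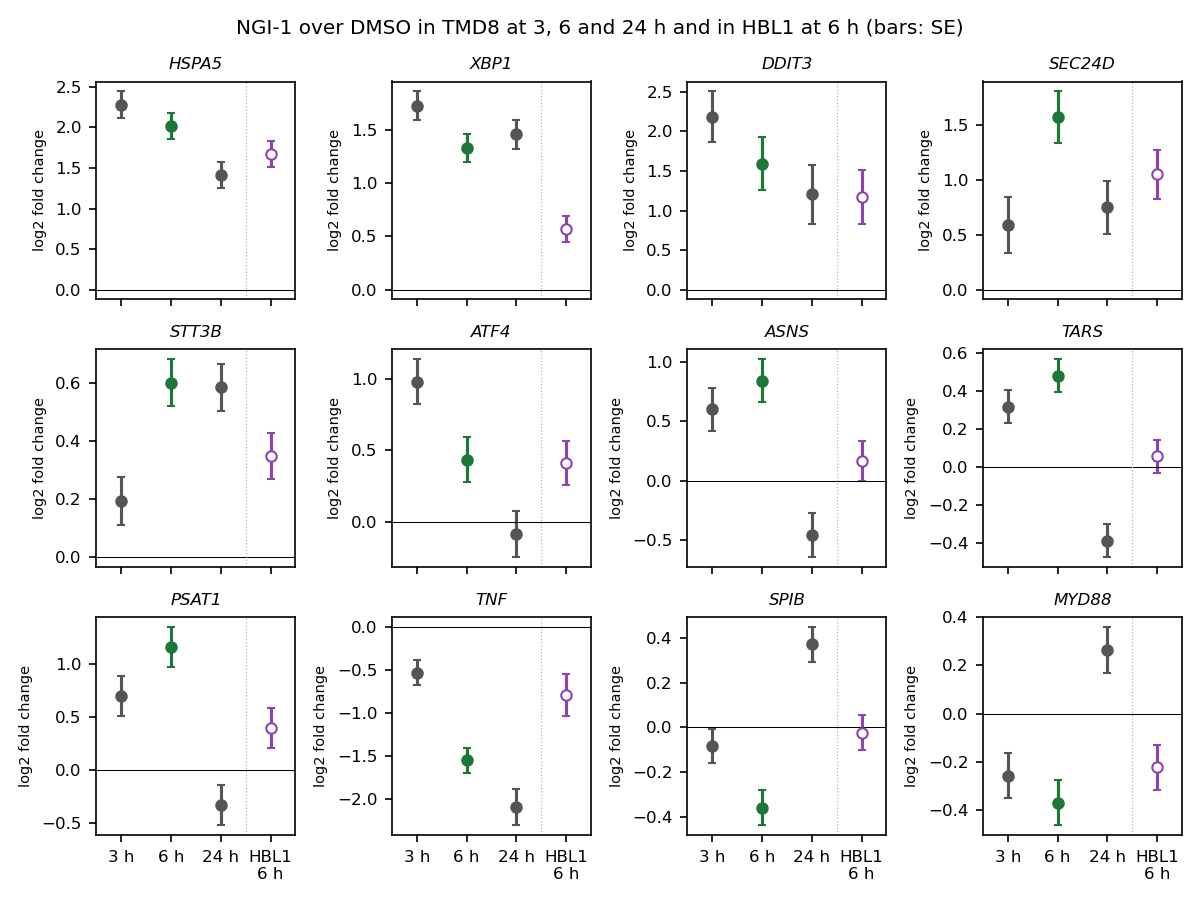
Log2 fold change of NGI-1 over DMSO (points, with bars of 1 SE, from 2 libraries per group) for 12 genes in TMD8 at 3, 6 and 24 h and, right of the dotted line, in HBL1 at 6 h, each panel on its own scale. HSPA5 stays above 1.4 at all times, TARS is at 0.48 at 6 h and -0.39 at 24 h, and SPIB is at -0.36 at 6 h and 0.37 at 24 h.

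In HBL1, a second line of the same lymphoma type, NGI-1 for 6 h changed 160 genes (1.15%), 150 of them higher (1.08%) and 10 lower (0.072%). The HBL1 count was 43 without its NGI-1 replicate 2 and 47 without its DMSO replicate 1. Of the 314 genes higher in TMD8, 103 were called higher in HBL1 too, 32.8% of the 314 and 68.7% of the 150. Of the 276 lower genes in TMD8, 7 were called lower in HBL1 (2.5%, and 70% of the 10). The median log2 fold change in HBL1 was 0.35 over the 314 and -0.14 over the 276, against 0.59 and -0.46 in TMD8, where these genes were chosen. Called or not, 277 of the 314 and 219 of the 276 had the same sign in HBL1 as in TMD8. HSPA5 had 3479 and 4637 CPM with NGI-1 in HBL1 and 1122 and 1422 CPM with DMSO, a log2 fold change of 1.67 ± 0.16 (adjusted p = 2.03e-07). The BiP list held 15 higher genes in HBL1, the COPII and COPI list 19 and the NF-kB list 0 in either direction, against 13 higher, 20 higher and 15 lower in TMD8. TNF in HBL1 was at 5.93 and 6.82 CPM with NGI-1 and 10.0 and 12 CPM with DMSO, which was not called (log2 fold change -0.78 ± 0.24, adjusted p = 0.132), and the TMD8 minus HBL1 difference of -0.76 ± 0.29 did not pass either (adjusted p = 0.635). The difference between the lines was called in 3 genes (0.0216%), with 882 at an unadjusted p under 0.05, in 9 by DESeq2, in 16 with the compared groups alone in the fit and in 50 without the filter on low counts. A replicate block by number gave 16 genes and a block within each line and time 261, though the labels do not pair replicates. CREB3L2 and PAG1, an adaptor that holds the Src kinase brake CSK at the membrane, had the higher effect in TMD8 (2 genes, 0.0144%; differences 0.70 ± 0.13, adjusted p = 0.0199 and 0.92 ± 0.17, adjusted p = 0.019), and NUP62, a nuclear pore protein gene within the overlapping locus, the lower (1 gene, 0.0072%; -0.78 ± 0.14, adjusted p = 0.0183). These 3 calls were lost without NGI-1 replicate 1 of HBL1 (adjusted p = 0.34 to 0.37), DMSO replicate 2 of HBL1, DMSO replicate 1 of TMD8 or either NGI-1 library of TMD8, and that of PAG1 also without DMSO replicate 1 of HBL1. XBP1 rose in both lines, to 358 and 444 CPM with NGI-1 against 257 and 283 CPM with DMSO in HBL1 (log2 fold change 0.57 ± 0.12, adjusted p = 0.0069). That call was lost without DMSO replicate 1 (adjusted p = 0.226) or NGI-1 replicate 2 (0.393) of HBL1, and the line difference of 0.76 ± 0.18 (adjusted p = 0.183) was not called.

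The 6 h libraries of TMD8 also allow NGI-1 to be set beside 2 kinase inhibitors. All 3 compounds share the same 2 DMSO libraries, so their changes against DMSO are given side by side, and only the direct comparison of NGI-1 with each inhibitor is a test between compounds. NGI-1 differed from acalabrutinib in 458 genes (3.3%), 322 higher (2.32%) and 136 lower (0.98%) in NGI-1 cells, and from copanlisib in 803 (5.78%), 453 higher (3.26%) and 350 lower (2.52%). Against DMSO, acalabrutinib changed 625 genes (4.5%; 236 higher, 1.7%) and copanlisib 1999 (14.4%; 969 higher, 6.98%). Leaving out any 1 library left 191 to 289 genes against acalabrutinib and 423 to 512 against copanlisib, the fewest without acalabrutinib replicate 2 and without NGI-1 replicate 2.

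ER stress genes stood higher with NGI-1 than with either inhibitor. HSPA5 had 3278 and 3594 CPM with NGI-1, 708 and 653 CPM with acalabrutinib, 546 and 512 CPM with copanlisib and 865 and 834 CPM with DMSO, and NGI-1 exceeded acalabrutinib by 2.34 ± 0.17 (adjusted p = 1.4e-10) and copanlisib by 2.70 ± 0.17 (adjusted p = 7.12e-12) on the log2 scale. DDIT3, whose overlap with MARS is described above, had 36.2 and 32 CPM with NGI-1, 11 and 8.52 CPM with acalabrutinib, 9.21 and 9.85 CPM with copanlisib and 13.3 and 9.25 CPM with DMSO, with direct differences of 1.80 ± 0.34 (adjusted p = 0.00138) and 1.83 ± 0.34 (adjusted p = 0.00058). The DDIT3 call against acalabrutinib was lost without acalabrutinib replicate 2 (adjusted p = 0.0678). Of the 25 BiP system genes, 15 were higher than with acalabrutinib and 17 higher than with copanlisib, and none was lower. Among oligosaccharyltransferase genes 7 of 12 were higher in each of the 2 comparisons. SLC1A4 differed from this order, at 106 and 115 CPM with NGI-1, 73.2 and 77.7 CPM with acalabrutinib, 96.8 and 95.1 CPM with copanlisib and 49.9 and 50.5 CPM with DMSO. All 3 compounds lay above DMSO for SLC1A4, and NGI-1 differed from acalabrutinib (0.55 ± 0.09, adjusted p = 4.57e-05) but was not called against copanlisib (0.20 ± 0.09, adjusted p = 0.213, 95% interval 0.02 to 0.38).

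NF-kB targets were lower with all 3 compounds, and less so with NGI-1. Against DMSO the list had 15 lower genes with NGI-1 (median -0.52), 26 with acalabrutinib (median -1.12; 389 genes, 2.8%, lower overall) and 27 with copanlisib (median -1.23; 1030 genes, 7.42%, lower overall). Directly, 22 of 35 stood higher with NGI-1 than with acalabrutinib and 22 higher than with copanlisib, and none lower. TNF had 72.2 and 81 CPM with NGI-1, 20.7 and 23.7 CPM with acalabrutinib, 11 and 9.38 CPM with copanlisib and 227 and 219.6 CPM with DMSO, and NGI-1 exceeded the inhibitors by 1.78 ± 0.17 (adjusted p = 4.33e-10) and 2.92 ± 0.18 (adjusted p = 8.89e-15). EGR2, at 9.17 and 12.7 CPM with NGI-1, had 2.33 and 2.95 CPM with acalabrutinib and 2.19 and 2.79 CPM with copanlisib, against 33.6 and 39.3 CPM with DMSO. In both genes NGI-1 lay between the inhibitors and DMSO without overlap. BCL2L1 followed the same order, at 88.4 and 86.6 CPM with NGI-1, 41 and 39.5 CPM with acalabrutinib, 38.4 and 39.9 CPM with copanlisib and 138 and 118 CPM with DMSO (direct differences 1.12 ± 0.10, adjusted p = 6.3e-11 and 1.16 ± 0.10, adjusted p = 1.01e-11).

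Other genes did not follow that order. BATF had 146 and 151 CPM with NGI-1, 142 and 157 CPM with acalabrutinib, 153 and 138 CPM with copanlisib and 265 and 237 CPM with DMSO, and the direct differences were -0.01 ± 0.10 and 0.03 ± 0.10, neither called. The 95% intervals ran from -0.21 to 0.18 against acalabrutinib and from -0.16 to 0.22 against copanlisib. MYC likewise had direct differences of 0.18 ± 0.16 (adjusted p = 0.767) and 0.32 ± 0.16 (adjusted p = 0.29). NUP62 was lower with NGI-1, at 375 and 365 CPM, than with acalabrutinib (577 and 638 CPM), copanlisib (559 and 587 CPM) or DMSO (716 and 672 CPM), with direct differences of -0.71 ± 0.10 (adjusted p = 1.35e-06) and -0.63 ± 0.10 (adjusted p = 9.53e-06). POU2AF1, a B cell coactivator, stood at 87 and 88.1 CPM with NGI-1, 118 and 139.99 CPM with acalabrutinib, 169.6 and 170.2 CPM with copanlisib and 83.6 and 97.7 CPM with DMSO. It was lower with NGI-1 than with either inhibitor (-0.56 ± 0.09, adjusted p = 3.23e-05 and -0.96 ± 0.09, adjusted p = 4.79e-11), and not called between NGI-1 and DMSO.

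**Figure D5:**
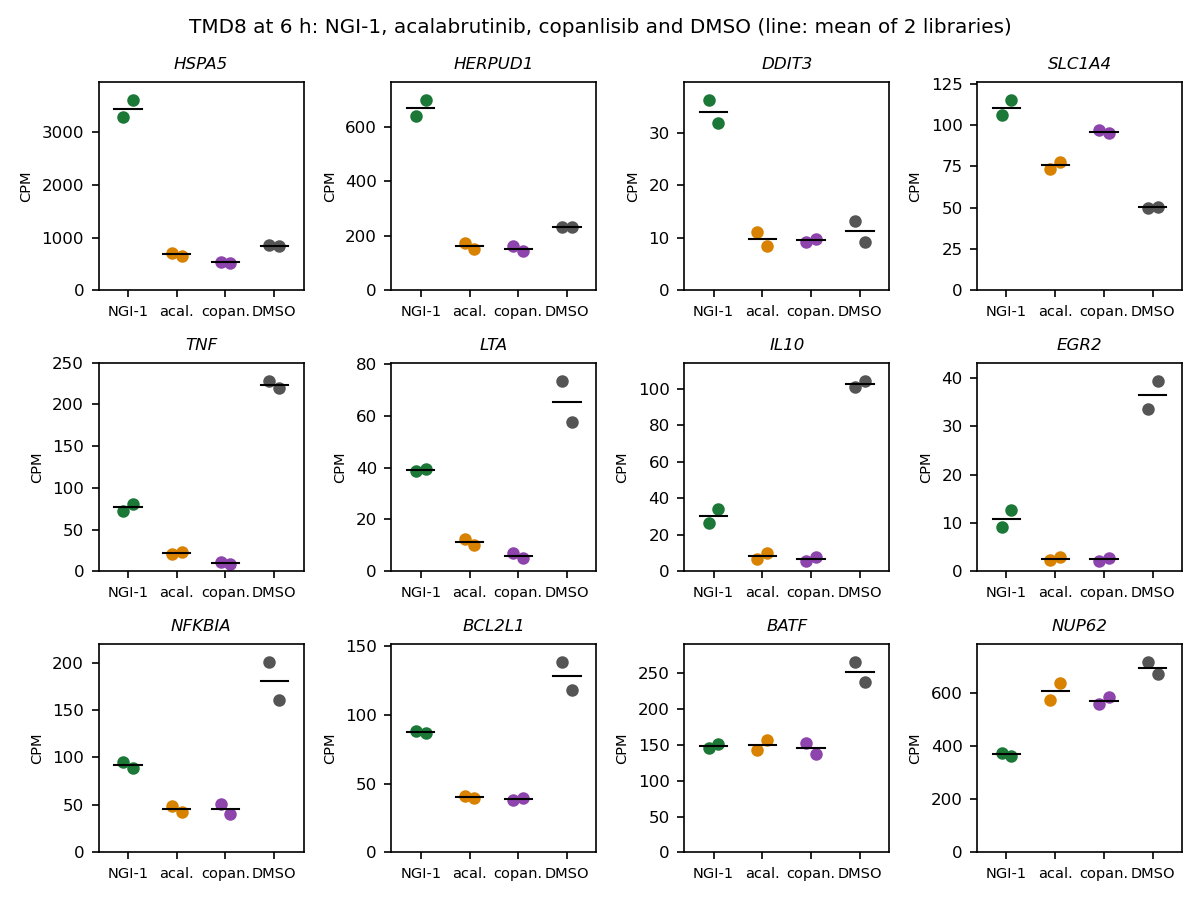
CPM of 12 genes in the TMD8 libraries at 6 h with NGI-1, acalabrutinib (acal.), copanlisib (copan.) and DMSO (2 points each, with the mean as a line), each panel starting at 0 on its own scale. HSPA5, HERPUD1 and DDIT3 are high with NGI-1 alone, TNF, LTA, IL10, EGR2, NFKBIA and BCL2L1 lie between the inhibitors and DMSO, and the BATF points of the 3 compounds overlap.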

How the data were processed

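HTSeq and hg19 are the tool and build in the submitters' processing notes, and the table the authors deposited holds raw gene counts, which are whole numbers of reads per gene. Neither an aligner nor a strand setting is named; they are not given in the sources used here. That table names 25066 genes, of which 3449 without an Entrez ID held 0.81% of reads, and 27 symbols turned into dates were restored from their Entrez IDs. Counts were fitted with edgeR 4.0.16 in R 4.3.3 (TMM scaling, filterByExpr, robust quasi-likelihood F test, Benjamini-Hochberg adjustment over 13881 genes, adjusted p under 0.05), with 1 mean for each of 24 groups, all 48 libraries and 24 residual degrees of freedom. Its common dispersion of 0.00539 amounts to a 7.34% coefficient of variation. CPM use the TMM library sizes, except in the sums of cell type markers, which use all counted reads of a library. Log2 CPM use a prior count of 2, and an SE is the absolute log2 fold change over the square root of F. Differences between lines, times and compounds are contrasts of the same fit, and their 95% intervals use its t distribution.

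The 36 gene lists (866 genes found, 20 of them by Entrez ID) and the comparisons were chosen with earlier results of these data known. Genes named are the 15 largest called changes in each direction averaging 1 or more log2 CPM, up to 6 called members of each list per direction, a fixed set of pathway genes, all unfolded protein response and oligosaccharyltransferase genes, and the 4 strongest per direction in each difference. Genes named beyond these, such as ARMET, HYOU1, MIS12, ERO1LB, EPRS, GARS and BATF3, were chosen after their values were seen. Positions and promoter windows are those of RefSeq on GRCh38.p14, not of hg19. Of 188 named genes 184 had a position and 33 overlapped another tested gene. Alternatives were RLE scaling, no filter or a stricter filter on low counts (at least 1 CPM in 2 libraries, and 1 log2 CPM on average), fits of fewer libraries, DESeq2 1.42.0, leaving out each library in turn, a replicate block and, chosen after seeing the data, edgeR without the robust spread. The series holds no lines or compounds besides those named here. Groups of HBL1 at times other than 6 h are not compared here. Nor are those with acalabrutinib or copanlisib in HBL1, or at other times in TMD8. These groups enter only the shared fit of all libraries, the range of counted reads and the correlations between libraries.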

Additional observations from a re-analysis of the deposited data

Results flagged for a closer look

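Between TMD8 and HBL1, the 6 h effect of NGI-1 differed by edgeR's test of the difference in 3 named genes, CREB3L2 (0.70 on the log2 scale, TMD8 minus HBL1), PAG1 (0.92) and NUP62 (-0.78). Each was lost without some of the 8 libraries, as given with the values for HBL1.

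Between 6 h and 24 h in TMD8 the effect differed by the same test in 54 named genes, given here as the 6 h minus the 24 h log2 fold change. This was positive in 30 genes. Of these, 5 were called above DMSO at 6 h and below it at 24 h, TARS (0.87), XPOT (0.71), TXNDC5 (0.76), CDC6 (0.73) and HMMR (0.63). Another 13 were above DMSO at 6 h and not called at 24 h, PSAT1 (1.49), CTH (1.45), VLDLR (1.38), ASNS (1.30), ATF5 (0.88), WARS (0.86), PSPH (0.83), GFPT1 (0.77), CISD2 (0.73), AARS (0.68), MARS (0.60), SARS (0.53) and SSR3 (0.50). MAGT1 (0.41) and PDIA6 (0.37) were above DMSO at both times. MTHFD1L (1.57), UAP1 (1.18), CARS (0.88) and HSPA9 (0.84) were not called at 6 h and were below DMSO at 24 h. The other 6 were below DMSO at both times and further at 24 h, IL4I1 (2.84), HK2 (0.71), BID (0.54), BATF (0.54), WDR12 (0.38) and TFRC (0.31). For IL4I1 the log2 fold changes were -1.21 at 6 h and -4.04 at 24 h, and for HK2 -0.37 and -1.08.

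The difference was negative in 24 genes. Of these, 15 were not called at 6 h and were above DMSO at 24 h, ST14 (-2.11), IL4R (-1.70), CD79B (-1.23), BTG2 (-1.20), LOC100288273 (-1.06), POU2AF1 (-0.89), BCL2L11 (-0.83), SIT1 (-0.79), TLR9 (-0.74), TXNIP (-0.68), CD79A (-0.66), ATF6B (-0.61), MBTPS1 (-0.59), PRDM1 (-0.57) and FURIN (-0.51). Another 6 were below DMSO at 6 h and above it at 24 h, S1PR1 (-1.03), MX1 (-0.94), OAS3 (-0.82), SPIB (-0.73), MYD88 (-0.63) and PFKP (-0.62). IFIT1 (-1.23) and BCL2L1 (-0.71) were below DMSO at 6 h and not called at 24 h (BCL2L1 log2 fold change 0.16 ± 0.10, adjusted p = 0.258). KIAA0040 (-0.79) was above DMSO at both times. Of the 54 differences, 11 were lost when some 1 of the 8 libraries was left out, those of ATF5, BATF, CD79A, CTH, MAGT1, PDIA6, PSPH, SSR3, TFRC, TXNIP and WDR12.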

How the results depend on the processing

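The number of genes called in NGI-1 against DMSO at 6 h was 582 with DESeq2 and 604 with RLE scaling, and 1137 with only the 4 libraries in the fit, against 590 as reported. It was 832 with a replicate block by number and 1843 with a replicate block within each line and time. Replicate numbers are shared across groups, but nothing in the labels says that they pair samples. The deviations of the 2 replicates correlated across genes at r = 0.089 to 0.304 between the 4 TMD8 groups of 6 h, with the lowest between NGI-1 and acalabrutinib, and at 0.272 to 0.304 between NGI-1 and DMSO in each line and time compared. Of 48 libraries 26 correlated best with a library of another group, each of the same number, and 22 with their own replicate. With 2 numbers this is a hint from the data, not part of the design. Apart from the 6 h minus 3 h and TMD8 minus HBL1 counts, the block is given only here. With the block within line and time the other counts were 825 in HBL1, 508 at 3 h, 261 for TMD8 minus HBL1, 215 for 6 h minus 3 h, 2713 for 6 h minus 24 h, 1194 against acalabrutinib and 2062 against copanlisib, and with the block by number 256, 16 and 8 in the HBL1, TMD8 minus HBL1 and 6 h minus 3 h comparisons. With only the groups compared, HBL1 had 68, TMD8 minus HBL1 16, 6 h minus 3 h 24, 6 h minus 24 h 1958, acalabrutinib 1027 and copanlisib 1662. Without the filter on low counts, HBL1 had 249, 3 h 161, TMD8 minus HBL1 50 and 6 h minus 3 h 29. DESeq2 called 9 genes for TMD8 minus HBL1 and 8 for 6 h minus 3 h, and with TMD8 libraries alone 18 genes were called for 6 h minus 3 h. The cause of these shifts was not tested. Leaving out 1 library gave 193 to 417 genes at 6 h, 43 to 164 in HBL1, 42 to 89 at 3 h, 2992 to 3149 at 24 h, 0 to 6 for TMD8 minus HBL1, 0 to 0 for 6 h minus 3 h, 550 to 872 for 6 h minus 24 h, 191 to 289 against acalabrutinib and 423 to 512 against copanlisib. The group then keeps a lone library assumed to vary like the others. Of 141 named genes called at 6 h, 76 kept their call under every alternative that tested them, the others lost it without some 1 library, and none changed sign. The stricter filter on low counts tested 132 of the 141, and the fit of the compared groups alone tested 140. Uncalled genes near 0 changed sign, at a log2 fold change of 0.0062 for KRTCAP2 with only the groups compared, and without 1 library within ranges of -0.0232 to 0.0234 for KRTCAP2, -0.0724 to 0.1278 for ATF6B, -0.0242 to 0.0737 for BCL2L11, -0.6447 to 0.179 for EGR1, -0.0769 to 0.1638 for LOC100128731, -0.1034 to 0.017 for NFE2L2, -0.1611 to 0.0711 for POU2AF1, -0.0951 to 0.1216 for PPP1R15A, -0.0016 to 0.0855 for PPP1R15B, -0.2732 to 0.1995 for ST14 and -0.4433 to 0.0408 for TRAF2. With 2 libraries per group and 8845215 to 9876499 reads in each, small changes of low genes could not be detected.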

Other observations

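Several called genes outside the gene lists kept their call at 6 h whichever library was left out, and are named after their values were seen. Among the higher ones was CDK2AP2, a small CDK2-associated protein, at 105 and 95.5 CPM with NGI-1 and 39.9 and 32.5 CPM with DMSO (log2 fold change 1.47 ± 0.12, adjusted p = 3.03e-12). UGDH, which makes UDP-glucuronate for proteoglycans, had 92.3 and 96.9 CPM with NGI-1 and 38.1 and 40.9 CPM with DMSO, a log2 fold change of 1.26 ± 0.12 (adjusted p = 4.31e-11). SLC35B1, the carrier that brings ATP into the ER for BiP, rose by 1.00 ± 0.14 (adjusted p = 1.64e-06), the ER calcium pump gene ATP2A2 (SERCA2) by 0.58 ± 0.10 (adjusted p = 4.28e-05), and NFE2L1, an ER-anchored factor that drives proteasome genes, by 0.63 ± 0.09 (adjusted p = 3.68e-06). The chemokine receptor gene CXCR4 had 148 and 160.2 CPM with NGI-1 and 93.7 and 105 CPM with DMSO (log2 fold change 0.64 ± 0.11, adjusted p = 6.83e-05). In each of these genes both NGI-1 libraries lay above both DMSO libraries.

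Lower genes outside the lists included the cytokine gene IL17F, at 1.15 and 1.13 CPM with NGI-1 and 6.78 and 4.85 CPM with DMSO (log2 fold change -2.34 ± 0.43, adjusted p = 0.00048), the chemokine gene CXCL10, at 4.24 and 6.19 CPM with NGI-1 and 15.3 and 16.8 CPM with DMSO (-1.62 ± 0.26, adjusted p = 6.76e-05), and TNIP3, a binding partner of A20, at 6.19 and 5.97 CPM with NGI-1 and 21.4 and 17.8 CPM with DMSO (-1.69 ± 0.32, adjusted p = 0.000432). ZC3H12A (Regnase-1), an RNase that degrades cytokine mRNAs, had a log2 fold change of -0.72 ± 0.13 (adjusted p = 0.00014). GPR183 (EBI2), a receptor that guides the positioning of B cells in lymphoid tissue, had 122 and 131 CPM with NGI-1 and 186 and 223 CPM with DMSO, a log2 fold change of -0.69 ± 0.11 (adjusted p = 3.82e-05). CFLAR, the caspase-8 inhibitor FLIP, had 267 and 263 CPM with NGI-1 and 365 and 377 CPM with DMSO (log2 fold change -0.49 ± 0.07, adjusted p = 3.38e-06), and the aryl hydrocarbon receptor gene AHR had a log2 fold change of -0.64 ± 0.09 (adjusted p = 8.76e-06). In each of these genes the NGI-1 libraries lay below the DMSO libraries.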
